A study of Mus musculus with 16 samples.

Results

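The genes described here encode 8 cathepsins (Ctsb, Ctsl, Ctss, Ctsc, Ctsh, Ctsz, Ctsd and Ctsa), the endopeptidase legumain (Lgmn) and the secreted protease inhibitor cystatin C (Cst3). They were taken by symbol, 10 of the 24421 genes counted, and all 10 had enough counts to be tested. RNA came from CD11b+ cells of subcutaneous MC38-Ova tumours, a mouse colon adenocarcinoma line carrying ovalbumin, grown in adult female C57BL/6 mice that express the photoconvertible protein Kaede. Violet light on the tumour turns the Kaede of the host cells inside it from green to red. A cell that was in the tumour at that moment is then Kaede-red, and a cell that entered afterwards is Kaede-green. Viable cells that carried CD45, Kaede and CD11b and lacked TER119 and NK1.1 were sorted 24h or 72h later. Each colour gave 4 libraries at either time, 16 in all, from mice with no treatment beyond the photoconversion. The labels used here do not divide the libraries into batches. Kaede-red cells had thus stayed in the tumour for at least 24h or 72h, whereas Kaede-green cells had entered within the last 24h or 72h. Colour bounds the time since entry and does not fix it for any 1 cell, and red cells keep some green signal.

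Cathepsins are proteases of the endosome and lysosome. They are made as inactive precursors, carried to the lysosome largely by mannose 6-phosphate receptors, and activated there at acid pH by other proteases or by themselves. Most are cysteine proteases of the papain family, while cathepsin D is an aspartic protease and cathepsin A a serine carboxypeptidase. Legumain cuts after asparagine and helps to mature several cathepsins. Cystatin C is secreted, blocks cysteine cathepsins that have left the lysosome, and also binds legumain. In macrophages and dendritic cells these enzymes digest what the cell takes up, trim the invariant chain of MHC class II and cut the endosomal Toll-like receptors.

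Total counts ranged from 3650937 to 10823666 in the 8 Kaede-green libraries and from 3216858 to 15423085 in the 8 Kaede-red libraries. The ribosomal RNA gene Rn45s took between 79.0 and 93.4% of the counts in Kaede-green and between 55.8 and 84.9% in Kaede-red libraries, which left medians of 691122.5 and 1696387.5 counts for all other genes. The depth therefore differed with the colour. The sum over the 10 genes lay between 2428 and 5575 counts in a Kaede-green library and between 9927 and 95746 in a Kaede-red library, so that each Kaede-green value rests on fewer counts. Levels are given as CPM, counts scaled to a common library size with edgeR's TMM factors, which follow the bulk of the genes and not Rn45s. Fold changes are Kaede-red over Kaede-green or 72h over 24h on the log2 scale with their standard error, from edgeR's quasi-likelihood test. A gene is called where its p-value, adjusted by the Benjamini-Hochberg method over the 9642 genes tested, was under 0.05. Itgam and Ptprc, which encode the CD11b and CD45 of the sort, were present in every library (Itgam at 59.6 CPM or more, Ptprc at 73.7 CPM or more), while Klrb1c, which encodes the excluded NK1.1, reached at most 0.26 CPM. In bulk RNA, fewer cells of a type and less RNA per cell cannot be told apart.

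To compare genes with each other, CPM was divided by the length of the main transcript. On this scale, in CPM per kilobase, Ctss was the highest of the 10 in both colours, with 465 ± 62.8 (SD, n = 8) for the Kaede-green against 590 ± 69.6 for the Kaede-red libraries. Cst3 came next in Kaede-green cells with 87.0 ± 15.8, and Lgmn in Kaede-red cells with 148 ± 22.5. Ctsa was the lowest in both, with 7.74 ± 1.76 and 11.6 ± 3.03. Between these ends the Kaede-green order was Ctsc, Lgmn, Ctsh, Ctsb, Ctsz, Ctsl and Ctsd, from 50.3 ± 7.88 down to 14.0 ± 3.83, and the SD ranges of neighbours in this run overlapped. The Kaede-red order after Lgmn was Cst3, Ctsb, Ctsc, Ctsh, Ctsz, Ctsl and Ctsd, from 86.2 ± 12.4 down to 34.5 ± 6.03. Here the SD ranges of neighbours overlapped except between Ctsb (84.1 ± 11.4) and Ctsc (61.1 ± 11.2). Lgmn thus took place 4 of the Kaede-green and place 2 of the Kaede-red order, and Ctsb places 6 and 4. Part of the order rests on the length used: with all annotated exons joined, Ctsc moved from place 3 to place 6 in Kaede-green cells, while Ctss stayed in place 1 and Ctsa in place 10.

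Kaede-red cells carried more RNA of legumain and of 5 of the 8 cathepsins than Kaede-green cells over both times, and no gene of the 10 was lower. Lgmn rose the most (3.13-fold), followed by Ctsd (2.50-fold) and Ctsb (2.38-fold), then Ctsz (1.79-fold), Ctsl (1.76-fold) and Ctsa (1.46-fold). The remaining genes, Ctss, Ctsh, Ctsc and Cst3, were not called. Of all genes tested, 10% were called higher and 10.3% lower in this comparison, against 6 and 0 of these 10. The median log2 fold change was 0.68 over the 10 genes and 0.06 over all genes tested. In Lgmn, Ctsd and Ctsb every Kaede-red library lay above every Kaede-green library, which held for 1.19% of all genes tested, and none was lower without overlap, which held for 1.74%.

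**Figure D1:**
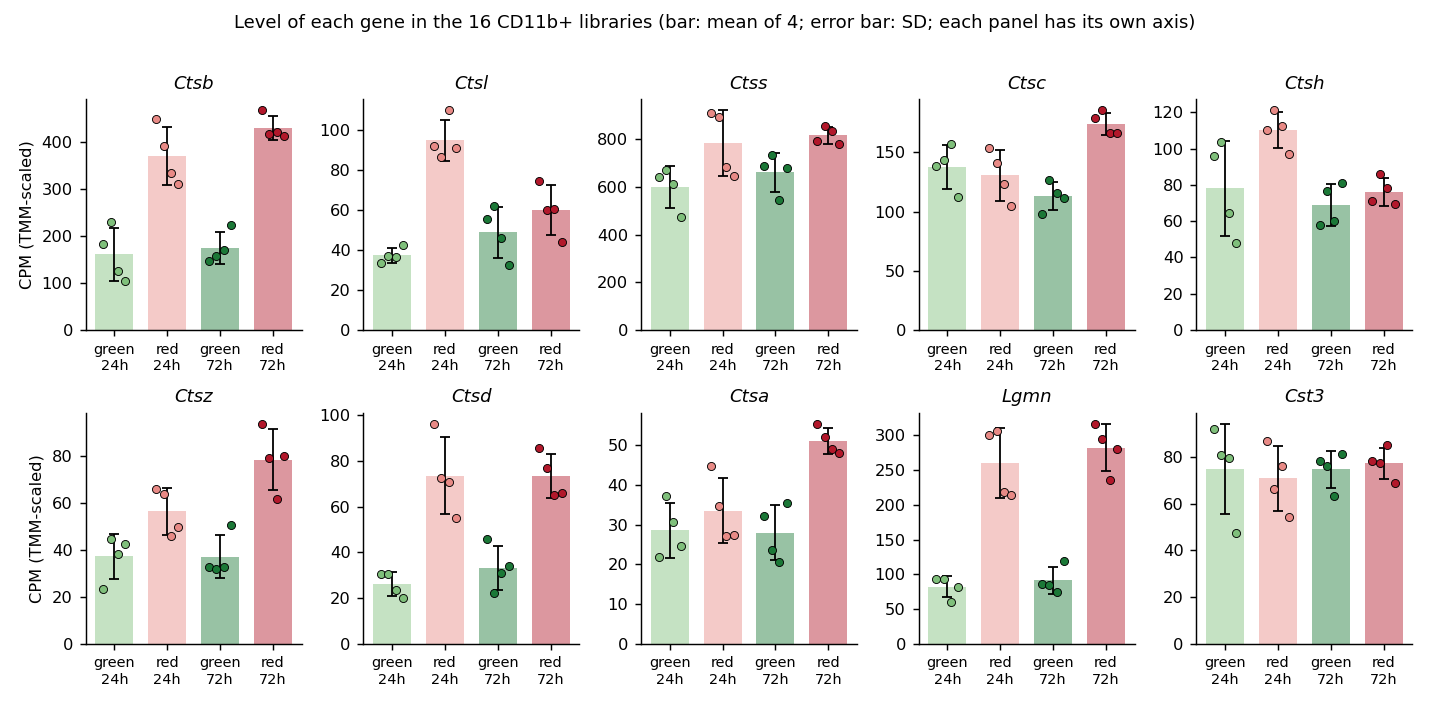
CPM (TMM-scaled) of the 10 genes in each of the 16 libraries, 1 panel per gene with its own linear axis from 0. Points are libraries, bars the mean and error bars the SD of the 4 libraries of a group (either colour at either time). The Kaede-red points of Lgmn, Ctsd and Ctsb lie above all Kaede-green points, Ctsl is highest in Kaede-red cells at 24h, Ctsa and Ctsc are highest in Kaede-red cells at 72h, and the Cst3 groups overlap.

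Legumain is encoded by Lgmn at chr12:102394084-102439813 on the minus strand (GRCm38, the assembly of mm10). In the Kaede-green libraries of 24h it stood at 93.7, 92.6, 60.6 and 81.8 CPM, and in those of 72h at 86.3, 84.9, 75.2 and 120 CPM. The Kaede-red libraries held 301, 306, 219 and 214 CPM at 24h and 316, 295, 236 and 281 CPM at 72h. The lowest Kaede-red library was thus well above the highest Kaede-green library at either time. Lgmn rose by 1.65 ± 0.15 on the log2 scale over both times (adjusted p = 1.69e-09), a larger change than in 98.4% of the genes tested. The call held in every alternative processing. Apart from scaling by library size, the log2 fold change then ran from 1.21 with the Rn45s share of each library as a covariate to 1.77 with no filter on low counts.

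Cathepsin D, the main aspartic protease of the lysosome, is encoded at chr7:142375911-142388038 on the minus strand. Ctsd stood at 30.7, 30.7, 23.7 and 20.04 CPM in Kaede-green cells at 24h and at 45.7, 22.0, 31.1 and 33.8 CPM at 72h. Kaede-red cells held 96.0, 72.6, 70.6 and 54.9 CPM at 24h and 85.8, 76.7, 65.2 and 66.0 CPM at 72h. The colours did not overlap, and the gap between the lowest Kaede-red and the highest Kaede-green library was narrower than in Lgmn. The rise over both times was 1.32 ± 0.16 (adjusted p = 1.61e-07). Cathepsin A, the serine carboxypeptidase that also protects neuraminidase and beta-galactosidase in a complex, is encoded at chr2:164832873-164841032 on the plus strand. Ctsa rested on few counts, from 39 to 136 in a Kaede-green library. The Kaede-green libraries of 24h averaged 28.5 ± 6.90 CPM (SD, n = 4), against 33.5 ± 8.26 CPM for the Kaede-red ones. At 72h the means were 27.9 ± 6.97 and 51.1 ± 3.30 CPM, with overlap at 24h and none at 72h. Ctsa rose by 0.55 ± 0.15 over both times (adjusted p = 0.00854). With the Rn45s share, which itself differed between the colours, as a covariate this became 0.12 and the call was lost (adjusted p = 0.932).

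Among the cysteine endopeptidases, 2 of 3 were called. Cathepsin B, which also removes dipeptides from the carboxyl end, is encoded at chr14:63122462-63145923 on the plus strand. Ctsb stood at 182, 229, 126 and 104 CPM in Kaede-green cells at 24h and at 147, 158, 171 and 224 CPM at 72h. Kaede-red cells held 447, 390, 333 and 309 CPM at 24h and 466, 416, 420 and 412 CPM at 72h. The lowest Kaede-red library, at 309 CPM, was above the highest Kaede-green library, at 229 CPM. Ctsb rose by 1.25 ± 0.16 over both times (adjusted p = 5.54e-07), and by 0.84 with the Rn45s share as a covariate, where the call was lost (adjusted p = 0.0634).

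Cathepsin L, an endopeptidase of broad lysosomal protein breakdown, is encoded at chr13:64359337-64370890 on the minus strand. Ctsl differed from the genes above in that its Kaede-red level went down with time. It stood at 33.5, 36.9, 36.4 and 42.5 CPM in Kaede-green cells at 24h and at 55.6, 62.0, 46.0 and 32.5 CPM at 72h. The Kaede-red libraries held 92.1, 86.5, 110 and 91.2 CPM at 24h and 74.7, 60.0, 60.8 and 44.3 CPM at 72h. All Kaede-red libraries of 24h lay above all other libraries, while at 72h the colours overlapped. The rise over both times was 0.82 ± 0.14 (adjusted p = 7.80e-05). Cathepsin S, which cuts the invariant chain in professional antigen-presenting cells and stays active at neutral pH, is encoded at chr3:95526786-95556403 on the plus strand. Ctss ranged from 473 to 733 CPM in Kaede-green and from 647 to 911 CPM in Kaede-red libraries. Its log2 fold change of 0.34 ± 0.15 was not called (adjusted p = 0.105), but DESeq2 called it at 0.32 (adjusted p = 0.013), and so did the fits with no filter on low counts (0.46, adjusted p = 0.0411) and with at least 10 counts in every library (0.41, adjusted p = 0.0126).

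Of the 3 cysteine exopeptidases, only Ctsz was called over both times. Cathepsin Z, a carboxypeptidase also known as cathepsin X, is encoded at chr2:174427493-174439039 on the minus strand. Ctsz stood at 23.4, 44.7, 38.2 and 42.5 CPM in Kaede-green cells at 24h and at 32.5, 32.1, 32.6 and 50.7 CPM at 72h. Kaede-red cells held 66.1, 63.9, 45.9 and 49.8 CPM at 24h and 93.6, 79.1, 61.6 and 79.9 CPM at 72h. Within each time the colours were apart, but 1 Kaede-green library of 72h lay above 2 Kaede-red libraries of 24h. Ctsz rose by 0.84 ± 0.15 (adjusted p = 0.000103), and by 0.40 with the Rn45s share as a covariate, where it was not called (adjusted p = 0.589). Cathepsin C, the dipeptidyl peptidase that activates granule serine proteases, is encoded at chr7:88278085-88310888 on the plus strand, and its log2 fold change was 0.27 ± 0.13 (adjusted p = 0.138). Cathepsin H, mainly an aminopeptidase, is encoded at chr9:90054152-90076089 on the plus strand, and its log2 fold change was 0.32 ± 0.15 (adjusted p = 0.118). Both were called higher with at least 10 counts in every library (0.34, adjusted p = 0.013, for Ctsc and 0.39, adjusted p = 0.0184, for Ctsh), and Ctsh also with no filter (0.44, adjusted p = 0.0412) and without Kaede-green replicate 2 of 24h (0.40, adjusted p = 0.0495).

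Cystatin C, the inhibitor among the 10, is encoded by Cst3 at chr2:148871722-148875692 on the minus strand. Cst3 stood at 92.0, 80.7, 79.5 and 47.4 CPM in Kaede-green cells at 24h and at 78.2, 76.3, 63.2 and 81.4 CPM at 72h. Kaede-red cells held 86.8, 66.3, 76.0 and 54.3 CPM at 24h and 78.2, 77.5, 85.0 and 68.8 CPM at 72h. The colours overlapped throughout. The log2 fold change was -0.02 ± 0.14 (adjusted p = 0.955), and its sign changed between settings, from -0.16 with the Rn45s share as a covariate to 0.10 with no filter. Without a scaling factor for composition, by library size only, the median of all genes moved from 0.06 to 2.20, and Cst3 then stood at 2.12, below that median, with Ctsb at 3.34 and Lgmn at 3.79 above it.

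Since a ratio of counts within a library needs no scaling factor, each protease was also set against Cst3 in the same library. The log2 ratio of Lgmn to Cst3 at 24h averaged 0.15 ± 0.49 (SD, n = 4) for the Kaede-green libraries against 1.88 ± 0.29 for the Kaede-red ones, and at 72h 0.27 ± 0.19 against 1.86 ± 0.26. For Ctsd it averaged -1.49 ± 0.22 and 0.05 ± 0.12 at 24h, and -1.22 ± 0.44 and -0.08 ± 0.22 at 72h. Ctsd counts were thus below those of Cst3 in every Kaede-green library and close to them in Kaede-red libraries. For Ctsb it averaged 1.07 ± 0.35 and 2.39 ± 0.19 at 24h, and 1.21 ± 0.28 and 2.47 ± 0.13 at 72h. In these ratios the 8 Kaede-red libraries lay above the 8 Kaede-green libraries for Lgmn, Ctsd and Ctsb, and the colours overlapped for the other 6 proteases. The ratio was taken for these proteases only, so no share of all genes can be set beside it. In CPM, such a lack of overlap held for 1.19% of all genes tested. The ratios use the same counts as the fold changes above and, as Cst3 hardly differed between the colours, largely repeat them. Shares were also taken of the summed counts per kilobase of main transcript over all 10 genes. By this measure Lgmn went from 5.84 ± 1.23% in Kaede-green to 12.5 ± 0.74% in Kaede-red cells at 24h and from 6.04 ± 0.94% to 12.9 ± 1.34% at 72h. The share of Ctss went from 57.0 ± 1.10% to 51.0 ± 1.53% and from 59.2 ± 2.44% to 50.8 ± 2.08%, without overlap of the colours, although its CPM was not lower in Kaede-red cells. The share of Cst3 went from 11.1 ± 1.65% to 7.30 ± 1.06% and from 10.6 ± 0.36% to 7.58 ± 0.62%. A share falls when other genes of the 10 rise, so these are descriptions of the mix and not of a loss.

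**Figure D2:**
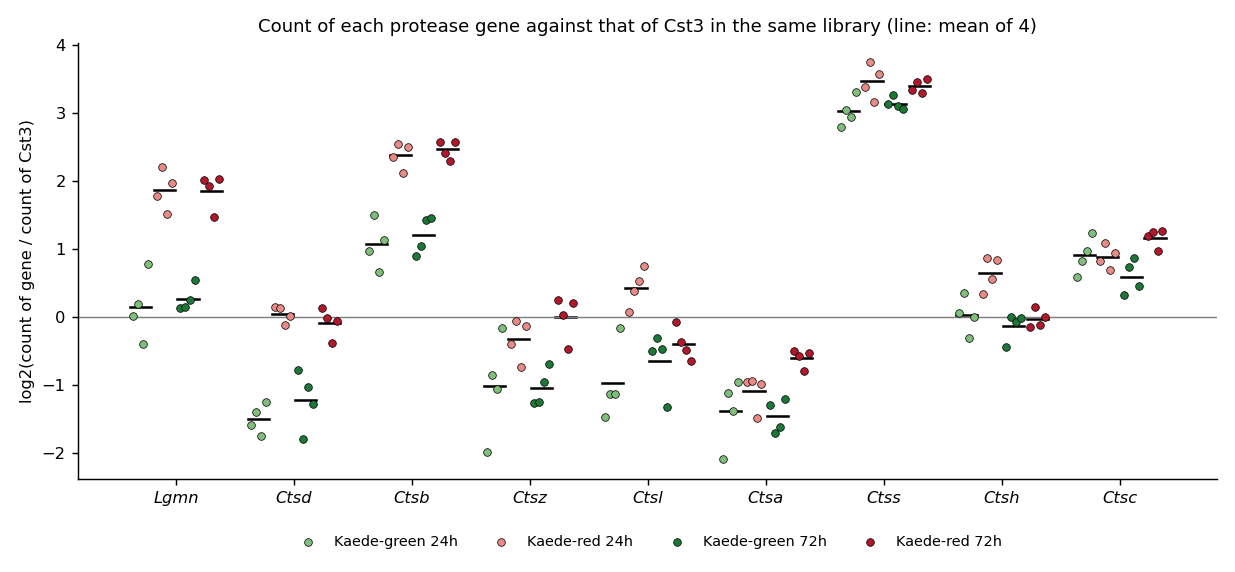
Log2 of the count of each of the 9 proteases over the count of Cst3 in the same library, with points for libraries and lines for the mean of the 4 libraries of a group. The Kaede-red points of Lgmn, Ctsd and Ctsb lie above all Kaede-green points, while the colours overlap in Ctsz, Ctsl, Ctsa, Ctss, Ctsh and Ctsc.

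The comparisons within each time asked whether the difference between resident and newly entered cells was present after 24h and after 72h. At 24h, 4 of the 10 genes were called higher in Kaede-red cells, against 3.22% of all genes tested, and none lower, against 4.28%. These were Lgmn with 1.67 ± 0.21 (adjusted p = 2.91e-06), Ctsd with 1.49 ± 0.22 (adjusted p = 4.02e-05), Ctsl with 1.34 ± 0.21 (adjusted p = 6.29e-05) and Ctsb with 1.21 ± 0.23 (adjusted p = 0.000673). Ctsz was not called (0.59 ± 0.22, adjusted p = 0.0936) although its colours did not overlap at 24h, as in the 4 called genes, and as in 7.09% of all genes tested (5.43% were lower without overlap, none of the 10 among them). Ctsh (0.50 ± 0.21), Ctss (0.38 ± 0.21), Ctsa (0.23 ± 0.22), Ctsc (-0.08 ± 0.18) and Cst3 (-0.08 ± 0.20) had adjusted p-values from 0.148 to 0.870. With the Rn45s share as a covariate, Ctsb had 0.84 at 24h and was not called (adjusted p = 0.0833), and with at least 10 counts in every library Ctsz (0.70, adjusted p = 0.025) and Ctsh (0.63, adjusted p = 0.0195) were called too.

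At 72h, 6 of the 10 genes were called higher, against 8.06% of all genes tested, and none lower, against 8.76%. Lgmn (1.62 ± 0.21, adjusted p = 1.60e-06), Ctsb (1.29 ± 0.23, adjusted p = 0.000109) and Ctsd (1.15 ± 0.22, adjusted p = 0.000256) were called again. Ctsz (1.09 ± 0.21, adjusted p = 0.000431), Ctsa (0.87 ± 0.21, adjusted p = 0.00346) and Ctsc (0.62 ± 0.18, adjusted p = 0.0156) were called at this time and not at 24h, while Ctsl (0.29 ± 0.20, adjusted p = 0.344) was not. The Kaede-red libraries of Ctsc held 179, 185, 166 and 167 CPM at 72h, all above the Kaede-green range of 98.3 to 127 CPM. Those of Ctsa held 55.3, 52.1, 49.0 and 48.0 CPM, above the Kaede-green range of 20.7 to 35.4 CPM. Ctss also had no overlap at 72h, with 781 to 856 CPM in Kaede-red and 543 to 733 CPM in Kaede-green libraries, but was not called (0.30 ± 0.21, adjusted p = 0.355). In all, 7 of the 10 genes were without overlap at 72h, against 13.0% of all genes tested, and none was lower without overlap, against 9.52%. Leaving out Kaede-green replicate 1 of 72h ended the call of Ctsc (0.56, adjusted p = 0.06). With the Rn45s share as a covariate only Lgmn was called at 72h (1.14, adjusted p = 0.0276), and 26 genes in all were then called higher instead of 777.

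**Figure D3:**
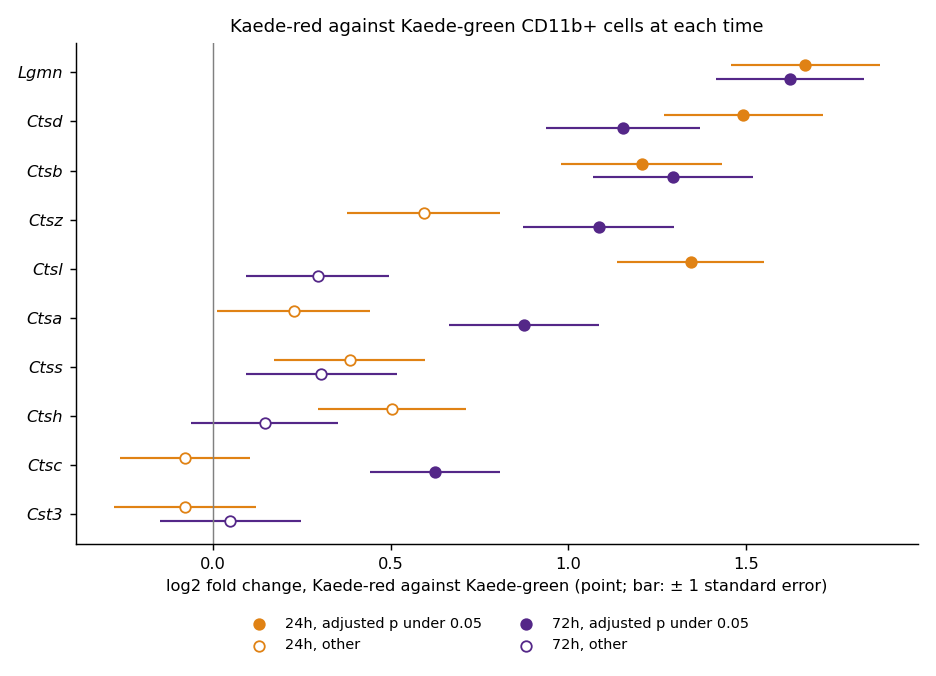
Log2 fold change of Kaede-red against Kaede-green cells for the 10 genes at 24h and at 72h, with bars of 1 standard error either side and filled points where the adjusted p was under 0.05. Lgmn, Ctsd and Ctsb are past 1 at both times, Ctsl lies at 1.34 at 24h and 0.29 at 72h, and Ctsz, Ctsa and Ctsc lie further right at 72h than at 24h.

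A gene called at 1 time and not at the other is not thereby shown to differ between them, and the difference itself was tested as the change of the red-green difference from 24h to 72h. None of the 10 genes was called in this test, against 0.425% of all genes tested in the higher and 0.332% in the lower direction. Ctsl came closest, with -1.05 ± 0.29 (adjusted p = 0.0685). It was called by DESeq2 (-1.07, adjusted p = 0.0159), with at least 10 counts in every library (-1.14, adjusted p = 0.0194), in a fit blocked on the replicate number (-1.04, adjusted p = 0.0293), and when Kaede-green replicate 4 of 24h (-1.12, adjusted p = 0.0479) or of 72h (-1.20, adjusted p = 0.0375) was left out. Ctsc had 0.70 ± 0.26 (adjusted p = 0.174) and was called by DESeq2 (0.68, adjusted p = 0.0314). Ctsa had 0.65 ± 0.30 (adjusted p = 0.296) and Ctsz 0.49 ± 0.30 (adjusted p = 0.447). For Lgmn the change was -0.04 ± 0.29 (adjusted p = 0.963). Ctsh (-0.36), Ctsd (-0.34), Cst3 (0.13), Ctsb (0.09) and Ctss (-0.08) had adjusted p-values from 0.599 to 0.936.

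Cells of the same colour were then compared between 72h and 24h, with the same libraries as above, so these values are not independent of the differences between colours. In Kaede-green cells, newly entered over a longer or a shorter window, none of the 10 genes was called by edgeR, as was none of all 9642 genes (0.0% in each direction). Without adjustment, 835 genes had a p under 0.05, and DESeq2 called 2 higher and 10 lower. The libraries of both times overlapped in each of the 10 genes, while 1.92% of all genes tested were higher and 1.08% lower at 72h without overlap. The largest values among the 10 were those of Ctsl (0.39 ± 0.21, adjusted p = 0.632), Ctsd (0.34 ± 0.23, adjusted p = 0.699) and Ctsc (-0.29 ± 0.18, adjusted p = 0.689). Ctsh (-0.17), Lgmn (0.16), Ctss (0.14), Ctsb (0.13), Ctsa (-0.04), Ctsz (-0.02) and Cst3 (-0.00081) had adjusted p-values of 0.860 or more. In Kaede-red cells, the resident cells of both times, Ctsl fell by 0.66 on the log2 scale (standard error 0.20, adjusted p = 0.0318), 1 of the 10 genes against 3.76% of all genes tested, and none rose, against 4.92%. All 4 Kaede-red libraries of 72h were below those of 24h for Ctsl. This call was lost when any of 6 Kaede-red libraries was left out (replicates 2, 3 and 4 of 24h and of 72h, adjusted p from 0.0518 to 0.142), with no filter (-0.59, adjusted p = 0.103), with the Rn45s share as a covariate (-0.45, adjusted p = 0.286) and by library size only (-0.29, adjusted p = 0.828).

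A few other genes came near the threshold between the Kaede-red times. Ctsh stood at 110 ± 9.82 and 76.2 ± 7.57 CPM at 24h and 72h, with no overlap (-0.53 ± 0.20, adjusted p = 0.100). Ctsa stood at 33.5 ± 8.26 and 51.1 ± 3.30 CPM (0.61 ± 0.20, adjusted p = 0.0589) and Ctsc at 131 ± 21.4 and 174 ± 9.44 CPM (0.42 ± 0.18, adjusted p = 0.155), both with no overlap, and Ctsz at 56.4 ± 10.1 and 78.5 ± 13.1 CPM (0.48 ± 0.20, adjusted p = 0.150). Lack of overlap between the Kaede-red times was seen in 11.8% of all genes tested in the higher and 8.76% in the lower direction. Ctsh and Ctsa were called by DESeq2 (-0.58, adjusted p = 0.0245, and 0.56, adjusted p = 0.0446), with at least 10 counts in every library and in a fit of only the Kaede-red libraries. Lgmn (0.12 ± 0.20), Ctsb (0.21 ± 0.22), Ctsd (-0.00020 ± 0.21), Ctss (0.06 ± 0.21) and Cst3 (0.13 ± 0.20) had adjusted p-values of 0.626 or more. The 3 genes with the largest red-green differences were therefore not among those near the threshold over time.

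**Figure D4:**
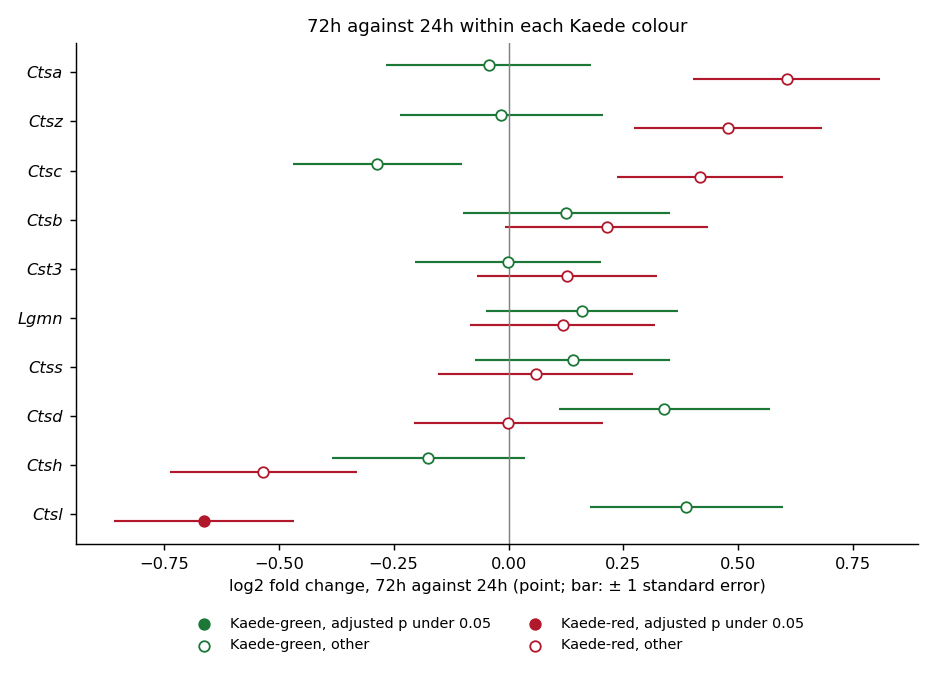
Log2 fold change of 72h against 24h for the 10 genes within each colour, with bars of 1 standard error either side and filled points where the adjusted p was under 0.05. Only Ctsl in Kaede-red cells is filled, at -0.66, and Ctsa, Ctsz and Ctsc lie to the right of 0 in Kaede-red cells.

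To describe which genes varied alike over the 16 libraries, log2 CPM was centred on each gene's mean and the root mean square of the difference between genes was taken, over 1381 genes with a mean log2 CPM of at least 4. Among the 10, Ctsb, Ctsd and Lgmn were nearest to one another (0.28 for Ctsb with Ctsd, 0.28 for Ctsb with Lgmn and 0.32 for Ctsd with Lgmn). Ctsa was nearest to Ctsz (0.26), and Ctss to Ctsc and Cst3 (0.24 each). Lgmn and Cst3 were the farthest apart (0.87). Outside the 10, the genes nearest to Lgmn were Adgre1, which encodes the macrophage marker F4/80 (0.29), the endocytic adaptor gene Dab2 (0.29) and Slamf7 (0.29), against a median of 0.91 over the genes compared. Adgre1 (0.32), the MHC class I gene H2-K1 (0.33) and Slamf7 (0.33) were nearest to Ctsd. For Ctsb they were Sirpa (0.24), Fcgr2b (0.24) and Slamf7 (0.25), all surface receptors of myeloid cells. Among those nearest to Ctsz were the receptor tyrosine kinase gene Axl (0.19) and Marcks (0.21). Lair1 (0.31), Osbpl8 (0.32) and Fabp5 (0.33) were nearest to Ctsl, and Oas3 (0.14), Mnda (0.15) and Gnai2 (0.16) to Ctsa. Nearest to Cst3 were the actin regulator Actr3 (0.16), the chaperone gene Hspa8 (0.17) and Prkar1a (0.17). For Ctsc they were the actin regulators Arpc2 (0.14) and Actr2 (0.14) and the interferon-inducible gene Irgm1 (0.14). Sh3bgrl (0.15), Akr1a1 (0.16) and Arf1 (0.16) were nearest to Ctss, and the ribosomal protein gene Rps2 (0.19), Itm2b (0.20) and Evi2a (0.22) to Ctsh. These values are descriptions over libraries that share depth and group, and genes that change little are near to many others.

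Several of the genes that rose together are known members of the lysosomal gene network, whose transcription factors TFEB, TFE3 and MITF bind E-boxes with the letters CACGTG. The RefSeq promoter windows of GRCm38.p6 (250 bases before to 50 after each start) were searched for these letters, which read the same on both strands. Of the 10 genes, 8 had an entry, with 10 windows, and CACGTG was found in 4 of 10 windows, against 10.4% of the windows of tested genes and 7.15% of all windows of that length. All 4 belonged to genes called higher over both times, namely Ctsd, Ctsa, Lgmn and Ctsl. Most of the 10 windows searched belonged to genes called higher, so this alone does not set the matches apart. Ctsb and Ctsh had no window. The longer palindrome TCACGTGA, which contains the former, was in 2 of the 10 windows, those of Ctsd and Ctsa, against 2.04% of the windows of tested genes and 0.974% of all. Neither was found in the windows of Ctss, Ctsc, Ctsz and Cst3. The 4 upstream stretches are shown because they carry these letters, each 5′ to 3′ on the strand of its gene, ending at the base before the start, with the matches in capitals.
Ctsd (chr7:142387828-142388077, minus strand): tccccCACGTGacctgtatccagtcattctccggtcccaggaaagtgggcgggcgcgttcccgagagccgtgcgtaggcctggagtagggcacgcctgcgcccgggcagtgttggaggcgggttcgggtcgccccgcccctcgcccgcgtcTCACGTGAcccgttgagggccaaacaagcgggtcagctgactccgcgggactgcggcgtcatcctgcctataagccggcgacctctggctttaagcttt
Ctsa (chr2:164833523-164833772, plus strand, second of 2 windows): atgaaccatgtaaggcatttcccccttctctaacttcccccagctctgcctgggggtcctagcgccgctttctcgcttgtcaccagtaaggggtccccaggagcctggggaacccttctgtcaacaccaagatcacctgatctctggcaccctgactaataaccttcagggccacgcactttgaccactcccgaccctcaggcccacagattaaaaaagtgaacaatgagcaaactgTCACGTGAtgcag
Lgmn (chr12:102439093-102439342, minus strand, second of 2 windows): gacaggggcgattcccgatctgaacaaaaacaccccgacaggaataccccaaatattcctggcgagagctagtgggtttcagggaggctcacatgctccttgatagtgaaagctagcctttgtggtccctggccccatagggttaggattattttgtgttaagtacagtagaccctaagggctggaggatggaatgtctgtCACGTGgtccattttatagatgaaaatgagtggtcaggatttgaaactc
Ctsl (chr13:64370521-64370770, minus strand): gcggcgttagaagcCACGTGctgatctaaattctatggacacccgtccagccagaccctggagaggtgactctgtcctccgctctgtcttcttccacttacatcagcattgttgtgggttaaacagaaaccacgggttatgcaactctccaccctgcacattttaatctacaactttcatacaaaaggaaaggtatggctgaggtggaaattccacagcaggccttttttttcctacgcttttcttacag
Counted from the start, CACGTG begins at -245 and -98 in Ctsd, at -12 in Ctsa with a second match at 6 past the start, at -49 in Lgmn and at -236 in Ctsl. The match of Lgmn lies before a start further into the gene, and the window of its other start holds none. For Ctsa too, both matches lie at a start further into the gene, and the window of its other start holds none. The window of Ctsl lies within the annotated gene. For the letters GAGGAAGT, a core of the myeloid factor PU.1 searched on both strands, matches were found in Ctss and Ctsc, 2 of the 10 windows against 3.50% of the windows of tested genes. The AP-1 letters TGACTCA were in none of the 10 against 3.84%. These matches describe letters in a window and were not tested for binding.

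Further genes of the same compartment were described from fixed lists. Of 6 other cathepsin genes, Ctse and Ctso had enough counts to be tested and neither was called in any comparison, while Ctsf, Ctsg, Ctsk and Ctsw did not. Ctso stood at 3.58 ± 1.07 (SD, n = 4) and 2.85 ± 1.11 CPM in the Kaede-green groups of 24h and 72h, and at 5.58 ± 0.65 and 4.36 ± 0.70 CPM in the Kaede-red groups (0.62 over both times, adjusted p = 0.0629). Of 10 other inhibitors of cathepsins, 3 were tested (Cstb, Serpina3g and Serpinb6a) and none was called between the colours, while Cst6, Cst7, Stfa1, Stfa2, Stfa2l1, Stfa3 and Serpinb1a had too few counts. Over both times, 10% of all genes tested were called higher and 10.3% lower, so lists this short would hold few calls. Cstb, which encodes the cytosolic inhibitor stefin B, went from 43.5 ± 5.42 to 23.3 ± 4.54 CPM between 24h and 72h in Kaede-red cells, and this fall passed the test (-0.90, adjusted p = 0.0136). Of all genes tested, 3.76% were called lower in that comparison.

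Of 10 genes for lysosomal sorting and its transcription factors, 4 were called higher over both times and none lower, against 10% and 10.3% of all genes tested. These were Gnptg (1.63, adjusted p = 0.0275), Nagpa (1.12, adjusted p = 0.0399) and Gnptab (0.51, adjusted p = 0.0482), which build the mannose 6-phosphate tag, and the transcription factor Mitf (0.70, adjusted p = 0.0440). The mannose 6-phosphate receptors M6pr (0.20, adjusted p = 0.339) and Igf2r (0.66, adjusted p = 0.0729) were not called, nor were Tfeb (0.24, adjusted p = 0.628) and Tfe3 (0.51, adjusted p = 0.0680). At 24h 1 gene of this list was called, the sorting receptor Sort1, which was lower (-2.31, adjusted p = 0.0352) on 13 counts or fewer in each library, and at 72h only Nagpa was called, and higher. Of all genes tested, 4.28% were called lower at 24h and 8.06% higher at 72h.

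Of 12 tested genes for other lysosomal enzymes, membrane proteins and proton pump subunits that work beside the cathepsins, 6 were called higher over both times and none lower. The shares of all genes tested were 10% and 10.3%. The median log2 fold change of the list was 0.53. Among the called genes, the largest changes were those of Galns (1.10, adjusted p = 0.00679), Grn, which encodes the cathepsin substrate progranulin (1.09, adjusted p = 1.26e-06), Psap, which encodes the saposin precursor that cathepsin D cuts (0.63, adjusted p = 0.00326), the pump subunit Atp6v1a (0.54, adjusted p = 0.0126) and the membrane protein gene Lamp1 (0.51, adjusted p = 0.00525). Grn stood at 75.8 ± 19.0 CPM in Kaede-green against 127 ± 27.0 CPM in Kaede-red cells after 24h, and at 78.5 ± 13.2 against 211 ± 25.5 CPM after 72h. The list had 2 genes called higher at 24h (Grn and Cd63) and 6 at 72h, against 3.22% and 8.06% of all genes tested. Neu1 and Glb1, whose products share a complex with cathepsin A, were not called over both times (0.59, adjusted p = 0.0577, and 0.89, adjusted p = 0.153). The tetraspanin gene Cd63 was called in the change of the red-green difference (-1.28, adjusted p = 0.0482), having gone from 21.6 ± 3.68 to 12.5 ± 0.81 CPM in Kaede-red cells.

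A further list held genes for antigen processing and for the Toll-like receptors of endosomes, some of whose products these proteases cut. Of its 12 genes, 10 were called higher over both times and none lower, against 10% and 10.3% of all genes tested. The median log2 fold change of the list was 0.91. Cd74, which encodes the invariant chain that cathepsin S trims, rose by 1.21 (adjusted p = 0.000110), with 143 ± 71.4 CPM in Kaede-green against 244 ± 93.2 CPM in Kaede-red cells after 24h, and 149 ± 79.7 against 466 ± 88.5 CPM after 72h. Tlr8 (1.10), H2-Aa (1.07), H2-Eb1 (1.03) and Tlr7 (1.01) followed, with adjusted p-values from 6.78e-05 to 0.000375. The peptide exchange genes H2-DMa (0.12) and H2-DMb1 (0.06) were not called. At 24h 3 of the 12 were called higher, all MHC class II chains, and at 72h 10 were called higher, against 3.22% and 8.06% of all genes tested.

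**Figure D5:**
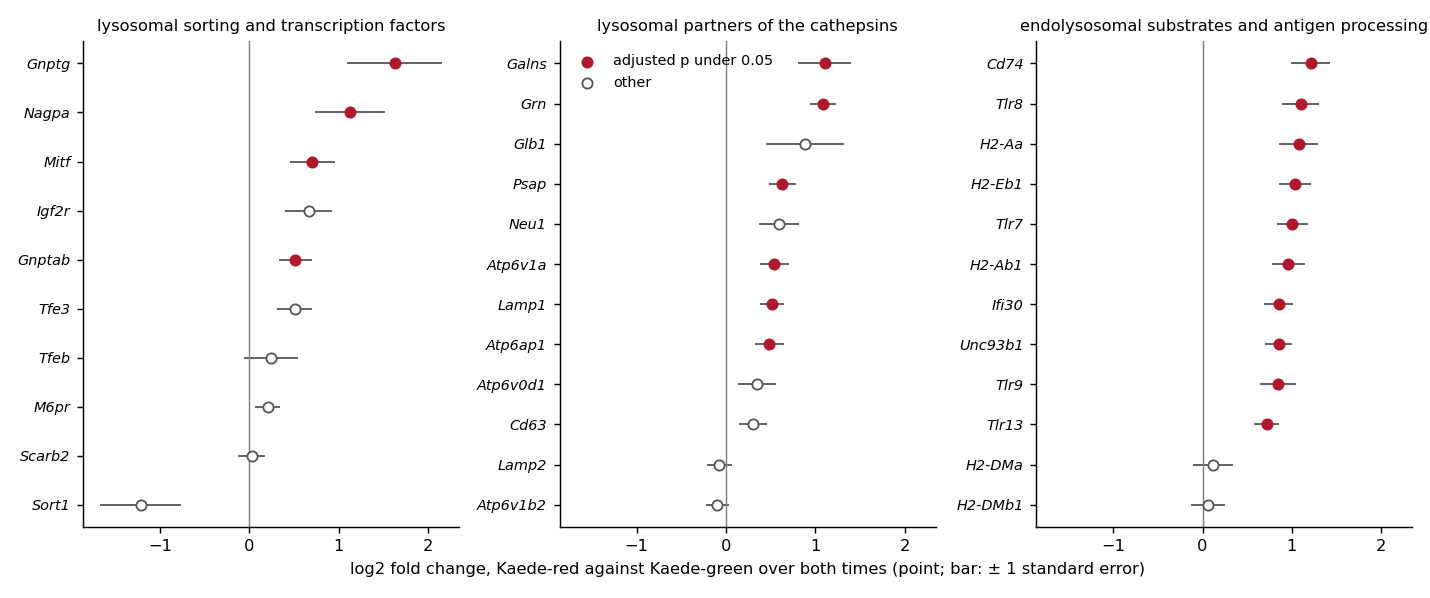
Log2 fold change between the colours (Kaede-red over Kaede-green, both times) for the tested genes of 3 lists, with bars of 1 standard error either side and filled points where the adjusted p was under 0.05. In the lists of 10, 12 and 12 genes, 4, 6 and 10 are filled, all of them to the right of 0.

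Cell type markers moved with the colour as well. Of 14 monocyte and macrophage markers, 8 were called higher in Kaede-red cells over both times, among them C1qa (2.72) and Adgre1 (1.53), and 1, Lyz2, lower (-1.24). The shares of all genes tested were 10% higher and 10.3% lower. The summed level of this list lay between 1230 and 2696 CPM in the Kaede-green and between 1033 and 1655 CPM in the Kaede-red libraries of 24h, and between 1460 and 1930 CPM and between 1715 and 2070 CPM in those of 72h. Neutrophil markers summed to 5.74 to 8.92 CPM (Kaede-green) and 7.26 to 11.2 CPM (Kaede-red) after 24h, and after 72h to 8.77 to 11.4 CPM and 15.8 to 19.1 CPM, without overlap at 72h. Csf3r, the 1 tested gene of that list, was called higher in Kaede-red cells both at 72h (1.12, adjusted p = 0.000941) and with the times together (0.67, adjusted p = 0.00566), while Ngp was at 0 in all libraries. Ly6g was not among the genes counted, and the other neutrophil markers had too few counts to be tested, so these sums rest on low counts. Fibroblast markers summed to 41.8 to 55.2 CPM (Kaede-green) and 20.03 to 38.6 CPM (Kaede-red) after 24h, and to 46.1 to 51.5 CPM and 12.5 to 19.5 CPM after 72h, with Col1a1, Col1a2 and Col3a1 called lower in Kaede-red cells. Endothelial markers summed to 9.77 to 19.2 CPM in Kaede-green and 17.96 to 36.9 CPM in Kaede-red libraries, with Pecam1 and Kdr called higher and Cdh5 lower in Kaede-red cells over both times. Markers of dendritic cells reached at most 8.82 CPM, of T and NK cells 5.73 CPM, of B cells 2.45 CPM, of tumour epithelial cells 3.68 CPM and of erythroid cells 11.3 CPM in any library. Of these low lists, the dendritic cell marker Ccr7 (adjusted p = 0.000403) and the T cell marker Cd4 (adjusted p = 0.0469) were called higher in Kaede-red cells over both times, on at most 4 and 3 counts in a Kaede-green library. The part of these markers in the cathepsin and legumain differences was not tested.

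The counting setting for strand is not given in the sources used here, so reads from genes on the other strand may enter the values of genes that overlap them. Ctsb overlaps Fdft1, Ctsz overlaps Nelfcd, Ctsa overlaps Neurl2 and Pltp, and Ctsl and Ctsc overlap noncoding genes, all on the opposite strand. On the same strand, Ctsd overlaps the gene model Gm49369, and Ctsl and Ctss each hold a processed pseudogene. Lgmn, Ctsh and Cst3 overlap no other annotated gene.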

How the data were processed

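Bulk RNA-seq of 16 libraries of sorted CD11b+ cells was used, 4 for each Kaede colour and time after photoconversion (24h or 72h). According to the methods and the submitters' processing notes, total RNA was made into stranded libraries, reads were trimmed with Trim Galore, aligned to mm10 with HISAT2 and counted per gene with featureCounts. The deposited values are raw counts per gene, with no normalization by the authors, for 24421 symbols, of which 23376 (95.7%) matched GENCODE vM21 on GRCm38 for position and length. Each single file held the same counts as its column of the combined table, and 0 columns were left unused. The 24 pairs of libraries within groups differed beyond sampling noise (chi-square per gene from 3.21 to 95.6), so all were kept as replicates. P-values measure the spread between these libraries, which the study describes as tumours of independent mice. Whether Kaede-green and Kaede-red libraries came from the same tumours is not given in the sources used here.

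Genes were kept by filterByExpr (9642) and tested in a single fit of all libraries with edgeR 4.0.16 in R 4.3.3, by the quasi-likelihood test with TMM factors and a mean for each of 4 groups. Benjamini-Hochberg adjustment was over all 9642 genes, with a threshold of 0.05. The script was tested on simulated data. Median standard errors of a log2 fold change were 0.27 between the colours (0.39 at 24h, 0.36 at 72h), 0.42 and 0.32 between times within Kaede-green and within Kaede-red, and 0.53 for the change of the difference. Log2 CPM used a prior count of 2. Levels per kilobase used the shortest APPRIS principal transcript or, as an alternative, the union of exons. Promoter windows were from RefSeq on GRCm38.p6.

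All 10 genes were named in each comparison, of each list other than the markers up to 5 called genes with the largest change over both times, and for the likeness over libraries the nearest 3 genes. A gene of the list of lysosomal partners, left out of its counts, and a gene near to Ctsz are not reported here. Ctso, Cstb, Sort1, Cd63, the untested or uncalled genes named in the lists and the cell type markers were named outside this rule, after their values were seen. The genes and lists were chosen with earlier results of these data known. The alternatives were DESeq2 1.42.0, RLE factors, library size only, no filter, at least 10 counts in every library, only the groups compared, a replicate block, counts without Rn45s, the Rn45s share as a covariate, Kaede-red libraries thinned to the median Kaede-green depth outside Rn45s, and leaving out each library in turn.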

Additional observations from a re-analysis of the deposited data

Results flagged for a closer look

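Dixon's test at the 95% level was applied to each of the 10 genes within each of the 4 groups of 4 libraries. By this test 2 values stood apart from the rest of their group. Chance alone does this in about 1 of 20 such tests, so with this many tests about as many would arise by chance. Ctsb stood at 466 CPM in the first Kaede-red library of 72h, against 412 to 420 CPM in the other 3 libraries of that group. Ctsz stood at 50.7 CPM in the fourth Kaede-green library of 72h, against 32.1 to 32.6 CPM in its group. Without the first of these libraries the log2 fold change of Ctsb at 72h was 1.25, and without the second that of Ctsz was 1.30, both still called.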

How the results depend on the processing

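Of 1520 values for single genes under an alternative, 1394 kept their direction and their side of the threshold. With the direction kept, 35 gained and 19 lost a call. The other 72 changed sign, and some of these were then called, such as Cst3 over both times with library size only. Of 304 counts of called genes, 275 stayed within 1.5 times the count reported. With library size only, all 10 genes were called higher in each of the 3 comparisons of the colours (both times, 24h, 72h). So were 9318, 9049 and 8092 of all 9642 genes tested, whose median moved to 2.20, 2.33 and 2.04. None of the 10 was called lower over time in Kaede-red cells with this setting. With the Rn45s share as a covariate, 3 genes were called higher over both times and 1 at 72h, and 0 lower over time in Kaede-red cells. At 72h far fewer of all genes tested were then called higher as well, as given above. Between the Kaede-red times, 1 gene was called higher and 2 lower with DESeq2, with at least 10 counts in every library and with only the groups compared, and 1 higher and 0 lower with no filter. Over all genes, DESeq2 called 594 higher and 647 lower there, of 9642, and the fit with no filter 526 and 301, of 21040. For the change of the difference, 1 gene was called lower with DESeq2, with at least 10 counts in every library and with the replicate block, and 1 higher with DESeq2. In that test DESeq2 called 159 of all 9642 genes higher and 131 lower. Leaving out 1 library gave 6 to 7 genes higher in Kaede-red cells for both times together, 4 to 4 at 24h, 5 to 6 at 72h, 0 to 1 higher and 0 to 2 lower over time in Kaede-red cells, and 0 to 1 lower for the change of the difference. None of the 10 genes was called lower in Kaede-red than in Kaede-green cells, or called over time in Kaede-green cells, in these settings. Where no count over all genes is given, a shift in these genes cannot be told apart from a shift of calls in general. The cause of these shifts was not tested.

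The sign changed only for values that were not called in the report. Between the colours over both times, Cst3 became 2.12 with library size only, 0.10 with no filter and 0.052 with at least 10 counts, with a range of -0.11 to 0.042 on leaving out 1 library. At 24h Cst3 became 2.26, 0.0095 and 0.043 in these settings (-0.26 to 0.033), Ctsc 2.28, 0.0099 and 0.035 (-0.18 to 0.018), and Ctsa -0.16 with the Rn45s share. At 72h Ctsh became -0.070 and Cst3 -0.11 with the Rn45s share, and Cst3 ranged from -0.041 to 0.11. Over time in Kaede-green cells, library size only gave 0.43 for Ctsc, 0.54 for Ctsh, 0.79 for Ctsz, 0.71 for Ctsa and 0.74 for Cst3. There Ctsz became 9.8e-05 with no filter and 0.022 with at least 10 counts, and Cst3 0.017, 0.046 and, with only the groups compared, 0.0053, while the ranges on leaving out 1 library were -0.048 to 0.34 for Ctsb, -0.21 to 0.064 for Ctsz, -0.18 to 0.091 for Ctsa and -0.18 to 0.090 for Cst3. Over time in Kaede-red cells, Ctsd became 0.31 with library size only, 0.074 with no filter and 0.0015 with only the groups compared (-0.12 to 0.17), Ctss -0.052 with the Rn45s share and -0.00087 with at least 10 counts (-0.022 to 0.15), and Lgmn -0.087 with the Rn45s share. For the change of the difference, library size only gave -0.34 for Ctsb and -0.29 for Cst3, no filter gave 0.014 for Lgmn, and Ctsb became -0.030 with at least 10 counts and -0.011 with the Rn45s share. Its ranges were -0.14 to 0.24 for Ctsb, -0.17 to 0.011 for Ctss and -0.13 to 0.12 for Lgmn.

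Whether replicate numbers pair the libraries is not given in the sources used here, and no pairing was assumed. Over the 8 pairs of a Kaede-green and a Kaede-red library with the same number and time, deviations from the group means correlated between -0.018 and 0.153, from 0.049 upwards at 24h, and in 2 of 8 pairs the own number gave the best match. With the replicate block, 6 genes were called higher over both times, as without it, and the block gives no value for time within a colour. Depth limits the Kaede-green values most, where Ctsa had as few as 39 and Ctsz 42 counts in a library. With Kaede-red counts thinned to the depth of Kaede-green libraries, the calls higher in Kaede-red cells numbered 6 for both times together, 4 for 24h alone and 6 for 72h alone. Counts over all genes with the block or after thinning are not set beside these.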
